A study of Mus musculus with 27 samples.

Results

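Reads assigned to the snoRNAs of the Snhg1 host gene were followed in 3 kinds of mouse cells, each split into chromatin, nucleoplasm and cytoplasm. The snoRNAs were chosen as lines of the deposited small RNA table. Taken were its snoRNA lines whose start lies in a fixed window of mouse chromosome 19 around Snhg1. The rule itself uses no measured value, but the choice was made with earlier results of these data known. The rule found 8 of the 1013 lines of the table, and 8 of its 239 snoRNA lines. Such a line is an entry in what follows. The 8 entries were Gm25855, Gm25894, Gm24452, Gm24453, Gm22744, Gm22680, Gm23246 and Snord22, and every one of them is described below. The cells were mESC, the embryonic stem cell line E14 kept in LIF on gelatin; mNPC, a neural progenitor line of the depositing laboratory given EGF and FGF at 10 ng/ml each day; and mCtx, primary cortical neurons plated for 5 days on poly-L-lysine. Both mESC and mNPC are single lines, no genotype or allele is named in the labels, and neither the age of the animals behind the neurons nor any pooling is given there. Each of the 9 groups, a kind of cell and a fraction, had 3 libraries, 27 in all, made from RNA under 200 nt after rRNA removal. The labels call them biological replicates without naming separate cultures, and a p-value here speaks only to the spread of these libraries, which could be technical in origin.

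A snoRNA is a short nuclear RNA that works in a protein complex, and most snoRNAs of the C/D box kind guide the methylation of ribose in ribosomal RNA. In mammals nearly all of them are cut out of the introns of host genes, where the spliced intron is opened and trimmed back to the snoRNA held by its proteins. Snhg1 is a textbook host of this kind: its exons code for no known protein and the spliced RNA is short-lived, while most of its introns carry a snoRNA. Snord22, also known as U22, is needed for the processing of the precursor of the small ribosomal subunit RNA. The other 7 entries carry names of predicted genes in the table, and no role is given for them here.

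All 8 positions and strands matched the mouse annotation GENCODE vM21 on the GRCm38 genome, once starts were counted from 1. The annotation places Snhg1 on the plus strand at chr19:8723475-8726443 with 18 isoforms. In the annotated isoform drawn in the map of the host, which has 10 exons and 9 introns, the 8 entries lay one each in introns 1 to 8, between 39 and 486 bases after the preceding exon and 65 to 121 bases before the next. From 1 to 7 isoforms annotated as retaining an intron run across each entry. The entries are, in the direction of transcription, Gm25855 at chr19:8723993-8724064, Gm25894 at chr19:8724251-8724325, Gm24452 at chr19:8724531-8724602, Gm24453 at chr19:8724868-8724943, Gm22744 at chr19:8725092-8725156, Gm22680 at chr19:8725341-8725409, Gm23246 at chr19:8725594-8725660 and Snord22 at chr19:8725866-8725991. The RNA sequences below are given as DNA from the GENCODE transcripts, because these 8 neighbours of one transcript are compared with each other throughout. Capitals mark the first TGATGA, the usual core of the C box, and the last CTGA, the usual D box.
Gm25855: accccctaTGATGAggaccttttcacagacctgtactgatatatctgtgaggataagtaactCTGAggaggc
Gm25894: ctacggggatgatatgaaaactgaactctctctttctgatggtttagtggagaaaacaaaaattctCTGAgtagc
Gm24452: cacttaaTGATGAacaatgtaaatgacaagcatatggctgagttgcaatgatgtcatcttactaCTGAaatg
Gm24453: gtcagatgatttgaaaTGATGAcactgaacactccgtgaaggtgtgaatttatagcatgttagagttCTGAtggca
Gm22744: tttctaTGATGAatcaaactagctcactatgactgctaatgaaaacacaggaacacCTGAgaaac
Gm22680: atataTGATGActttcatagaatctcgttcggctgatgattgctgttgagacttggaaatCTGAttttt
Gm23246: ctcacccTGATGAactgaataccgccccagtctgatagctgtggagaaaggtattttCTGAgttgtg
Snord22: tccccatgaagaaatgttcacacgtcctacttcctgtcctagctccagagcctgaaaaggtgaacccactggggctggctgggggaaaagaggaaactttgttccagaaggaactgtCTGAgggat
The annotated lengths ran from 65 to 76 bases for 7 entries, and Snord22 was longer than these. TGATGA stood in 6 of the 8 sequences, and in neither Gm25894 nor Snord22. It stood in 26.1% of the 1507 snoRNA transcripts of the annotation, read on the transcribed strand only. CTGA followed by at most 6 bases closed all 8 sequences, as it did 26.9% of the 1507. Both motifs within 14 bases of their ends were found in 5 of the 8 entries, in 45.8% of the 238 snoRNA entries of the table that had a GENCODE sequence, and in 20.3% of the 1507 transcripts. The entries were not copies of each other: among the 28 pairs the most alike were Gm25894 and Gm23246, with 70.1% of the bases of the shorter one identical in the alignment. The longest exact stretch shared with a transcript of another gene on the same strand was 26 bases for Gm22744, with Mtfr2, and 25 bases for Gm22680, with Gm23389, and between 16 and 19 bases for the other 6. Reads short enough to lie in those stretches cannot be told apart between the genes.

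**Figure D1:**
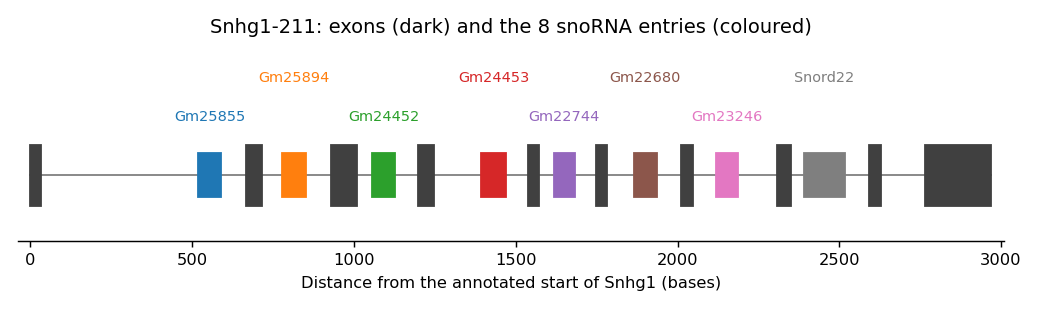
The introns and exons of an isoform of Snhg1 drawn to scale, with distance from the annotated start of Snhg1 in bases on the x axis, exons as dark boxes and the 8 entries as coloured boxes. One entry sits in each of introns 1 to 8, and the ninth intron holds none.

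Values are RPM, reads that the authors scaled to the size of each library, and a value of 0 means that the entry was listed at 0, not that the RNA was absent. Whether the reads of an entry came from the whole snoRNA or from pieces of it was not tested. A level or fraction given below for an entry is that of its reads. The lowest value above 0 ranged from 5.16 to 59.1 RPM between libraries, and the depth behind it is not known. The fractions differed widely in their make-up: snoRNA entries held 50.4%, 31.7% and 22.0% of the listed RPM in mESC, mNPC and mCtx chromatin, against 4.11%, 1.93% and 1.37% for nucleoplasm and 0.391%, 0.0520% and 0.0564% for cytoplasm. Markers of mESC and of neurons followed the labels. The 15 entries of miR-290 to miR-295 summed to 19861 to 93945 RPM in mESC libraries and were all at 0 in mNPC and mCtx. In mCtx the entries of miR-124, miR-128 and miR-138 summed to 13901 to 47551 RPM, against at most 944.6 in mNPC and 906.1 in mESC. Entries of endothelium and mesenchyme (miR-126a, miR-143 and miR-145a; 3 of 4 above 0) summed to 2192 to 3975 RPM in mCtx, and their part in the results for mCtx was not tested. Differences were tested with limma on log2(RPM + 1) in a single fit of all 27 libraries over 851 entries, and called at an adjusted p under 0.05. In these bulk libraries more cells with an RNA and more RNA per cell cannot be told apart.

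The 8 neighbours did not share 1 pattern. Gm24453, Gm25894 and Snord22 were highest in mESC chromatin. Gm24452 was in the chromatin fraction in mESC but in nucleoplasm in mNPC. Gm22680 and Gm22744 were listed at 0 in mESC chromatin and reached their highest values in mNPC chromatin. Gm23246 was the most widely listed, and Gm25855 was listed in the cytoplasm alone. These 8 were above 0 in 17, 11, 10, 11, 17, 16, 23 and 9 of the 27 libraries in that order.

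**Figure D2:**
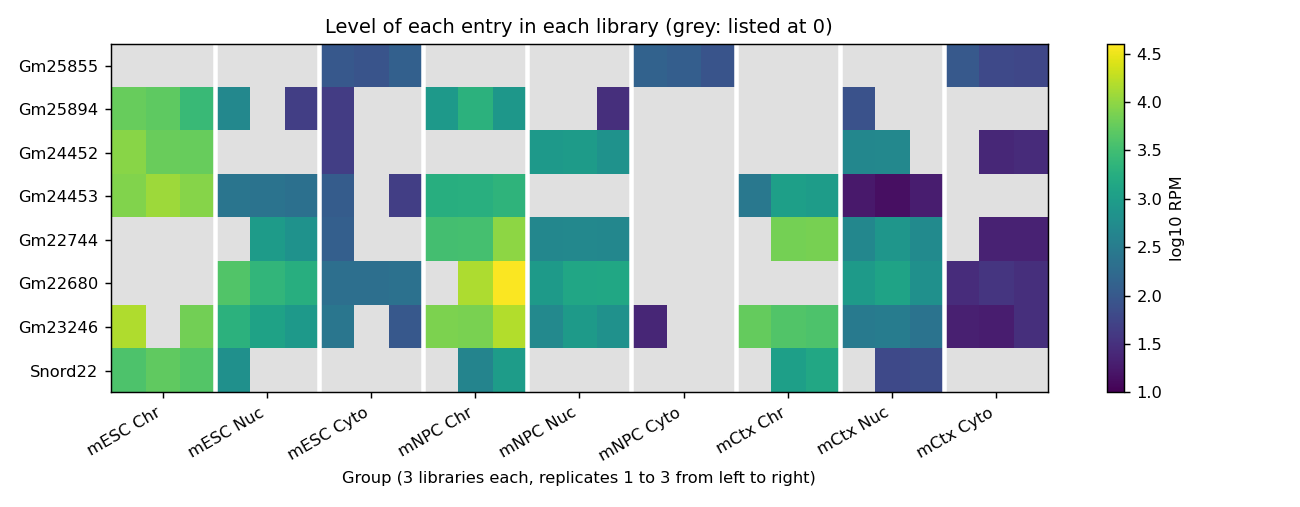
Level of each entry (rows, in the order of the host's introns) in each of the 27 libraries (columns, replicates 1 to 3 of each group), as log10 RPM in colour with grey for a listed 0. Gm25855 fills only the 9 cytoplasmic columns, and Gm22680 is grey in mESC and mCtx chromatin and reaches 38151 RPM in the third mNPC chromatin library.

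Gm24453, from the fourth intron, had the most regular fall from chromatin outwards. In mESC chromatin it had 8289, 11834 and 8810 RPM in replicates 1 to 3. In mESC nucleoplasm it had 249, 239 and 216 RPM, and in mESC cytoplasm 113, 0 and 47.2. Chromatin thus lay above nucleoplasm in every mESC library, by 5.34 ± 1.02 (SE) on the log2(RPM + 1) scale (adjusted p = 0.000169). In mNPC it had 1816, 1889 and 2162 RPM in chromatin and was listed at 0 in the other 6 libraries. The mCtx libraries had 279, 1073 and 980.4 RPM for chromatin, 17.7, 13.9 and 19.4 for nucleoplasm and 0 for cytoplasm. The mCtx groups did not overlap either, with a chromatin level 5.22 ± 1.02 above nucleoplasm on that scale (adjusted p = 0.000448). It was also higher in chromatin than in cytoplasm in all 3 kinds of cells (adjusted p = 1.83e-07, 2.28e-08 and 2.04e-07 in mESC, mNPC and mCtx) and in nucleoplasm than in cytoplasm in mESC and mCtx (0.0114 and 0.00403), of which the mCtx call was lost where values under 59.1 RPM were raised to it in every library (adjusted p = 1). Scaled to snoRNA reads the chromatin and nucleoplasm levels of Gm24453 were closer, with differences of 1.79 in mESC and 1.47 in mCtx that did not pass (adjusted p = 0.598 and 0.738). On that scale the chromatin and cytoplasm levels in mESC also did not pass (adjusted p = 0.0560), nor did nucleoplasm and cytoplasm (0.275), which also missed with only the compared groups in the fit (0.275).

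Gm25894, from the second intron, was mainly a chromatin entry of mESC and mNPC. It had 5889, 5078 and 2740 RPM in mESC chromatin and 847, 2060 and 815 in mNPC chromatin. In mCtx chromatin all 3 libraries were at 0. Outside chromatin it was above 0 in 5 of 18 libraries, at 480.1 and 47.2 RPM in mESC nucleoplasm, 44.1 in mESC cytoplasm, 30.2 in mNPC nucleoplasm and 80.0 in mCtx nucleoplasm. It was higher in chromatin than in nucleoplasm and cytoplasm in mESC (adjusted p = 0.00347, 0.0509 with only the compared groups in the fit, and 0.000113) and in mNPC (0.00171 and 0.000215). Scaled to snoRNA reads both differences from nucleoplasm missed the threshold (adjusted p = 0.270 in mESC and 0.0994 in mNPC). Gm25894 was lower in mCtx chromatin than in mESC and mNPC chromatin (adjusted p = 1.74e-05 and 0.000293), where no library of mCtx was above 0 and all 6 others were.

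Snord22, the U22 RNA of the eighth intron, was listed in chromatin and in few other places. It had 3910, 5345 and 4370 RPM in mESC chromatin, 0, 415 and 969 in mNPC chromatin and 0, 1061 and 1427 in mCtx chromatin. In nucleoplasm it was above 0 only at 647 RPM in 1 mESC library and at 61.9 and 69.7 in 2 mCtx libraries, and in cytoplasm it was at 0 in all 9. In mESC it was higher in chromatin than in nucleoplasm and cytoplasm (adjusted p = 0.00865 and 0.000707), the first of which missed the threshold scaled to snoRNA reads (0.0590). For Snord22 that difference was 9.01 scaled to snoRNA reads and 9.02 in log2(RPM + 1). In mCtx it was higher in chromatin than in cytoplasm (adjusted p = 0.0476), a call lost without replicate 2 or 3 of mCtx chromatin (0.191 and 0.209) and without replicate 1, 2 or 3 of mCtx cytoplasm (0.0853, 0.0954 and 0.0961), scaled to snoRNA reads (0.0586) and with only the compared groups in the fit (0.131). In mNPC its chromatin level did not pass against cytoplasm or nucleoplasm (adjusted p = 0.0812 and 0.111), and without replicate 1 of mNPC chromatin, the library at 0, both passed (0.00837 and 0.0109). Its mESC and mNPC chromatin levels did not overlap (adjusted p = 0.0877), and without replicate 3 of mNPC chromatin that difference passed (0.0386).

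Gm24452, from the third intron, stood in a different fraction in different cells. In mESC chromatin it had 9224, 5909 and 5710 RPM, while the 3 mESC nucleoplasm libraries were at 0 and mESC cytoplasm had 46.8, 0 and 0. In mNPC the order was turned round, with 0 in all 3 chromatin libraries and 849, 956 and 676 RPM in nucleoplasm. In mCtx it had 0 in all 3 chromatin libraries, 462, 476 and 0 in nucleoplasm and 0, 25.1 and 27.7 in cytoplasm. Chromatin was higher than nucleoplasm in mESC (adjusted p = 4.68e-06) and lower than nucleoplasm in mNPC (0.000205) and mCtx (0.0131). The difference between chromatin and nucleoplasm itself differed between mNPC and mESC (adjusted p = 4.39e-07) and between mCtx and mESC (6.12e-06). The call in mCtx was lost without replicate 1 or 2 of mCtx nucleoplasm (adjusted p = 0.0921 and 0.0930), the libraries that held its values, and with only the compared groups in the fit (0.127). Without replicate 3 of mCtx nucleoplasm, the one at 0, nucleoplasm was higher than cytoplasm in mCtx (0.00293). Without replicate 1 of mCtx cytoplasm its cytoplasmic level passed over chromatin (0.0408).

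Gm22680, from the sixth intron, was the entry with the highest single value, and it was not listed in mESC or mCtx chromatin. The mESC libraries were at 0 for chromatin, at 4132, 2326 and 1833 RPM for nucleoplasm and at 209, 208 and 222 for cytoplasm. The mCtx libraries were at 0 for chromatin, at 909, 1245 and 634 RPM for nucleoplasm and at 28.9, 35.4 and 30.2 for cytoplasm. Within these cells the 3 fractions did not overlap. Chromatin was lower than nucleoplasm in both (adjusted p = 0.000231 in mESC and 0.00179 in mCtx) and lower than cytoplasm in mESC (0.00556), while the mCtx difference from cytoplasm did not pass (0.0781, and 2.54e-05 with only the compared groups in the fit). The mESC difference from cytoplasm was lost where values under 59.1 RPM were raised to it in every library (adjusted p = 0.313). Nucleoplasm exceeded cytoplasm by 3.60 in mESC and 4.79 in mCtx on the log2(RPM + 1) scale. These did not pass in the fit of all groups (SE 2.23, adjusted p = 0.366 and 0.135) and passed where only the compared groups entered the fit (0.000948 and 8.28e-05). In mNPC chromatin the libraries were far apart, at 0, 14399 and 38151 RPM. In mNPC nucleoplasm they lay close, at 912, 1330 and 1405 RPM, and in mNPC cytoplasm all were at 0. Both mNPC chromatin and nucleoplasm were higher than cytoplasm (adjusted p = 0.00157 and 0.00227), the first of which missed the threshold with only the compared groups in the fit (0.122). Chromatin and nucleoplasm did not pass against each other in mNPC (-0.55 on the log2 scale, adjusted p = 1), and without replicate 1 of mNPC chromatin the difference turned to 4.29 (1.92e-08).

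Gm22744, from the fifth intron, was also listed at 0 in all 3 mESC chromatin libraries. In mESC nucleoplasm it had 0, 955 and 690.5 RPM, and in mESC cytoplasm 123.98, 0 and 0. The mNPC libraries had 3345, 3480 and 9731 RPM for chromatin, 457, 473 and 468 for nucleoplasm and 0 for cytoplasm. The mCtx libraries had 0, 6942 and 7334 RPM for chromatin, 462, 779 and 524 for nucleoplasm and 0, 22.3 and 21.8 for cytoplasm. In mNPC both chromatin and nucleoplasm were higher than cytoplasm (adjusted p = 0.00128 and 0.0329), the second of which was lost without any 1 of the 6 libraries (replicates 1, 2 and 3 of mNPC nucleoplasm, 0.0778, 0.0724 and 0.0798; of mNPC cytoplasm, 0.0825, 0.0820 and 0.0729) and with the raised floor (0.196). The mNPC chromatin libraries all lay above those of nucleoplasm, by 3.37 ± 2.76 (SE) on the log2(RPM + 1) scale (adjusted p = 0.495, and 0.00220 with only these groups in the fit). In mCtx no fraction pair passed, and chromatin passed over cytoplasm without replicate 1 of mCtx chromatin (0.00154), the library at 0. That difference also passed with the raised floor (0.00565), with 10 in place of 1 added to RPM (0.0250) and with the libraries centred on the entries they share (0.0336). Nucleoplasm lay above cytoplasm in mCtx with no overlap, and passed with only the compared groups in the fit (0.0163) and with that centring (0.0326). In mESC the nucleoplasm passed over chromatin without replicate 1 of mESC nucleoplasm (0.00562).

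Gm23246, from the seventh intron, was above 0 in some library of all 9 groups. It had 14831, 0 and 6775 RPM in mESC chromatin, 7835, 7615 and 15224 in mNPC chromatin and 5666, 4169 and 3938 in mCtx chromatin. Nucleoplasm libraries had 2043, 1187 and 862 RPM (mESC), 501, 908 and 658 (mNPC) and 300.2, 326 and 233 (mCtx). Cytoplasm libraries had 259, 0 and 99.2 RPM (mESC), 24.7, 0 and 0 (mNPC) and 20.5, 19.6 and 30.2 (mCtx). In mCtx the 3 fractions did not overlap, and chromatin was 7.56 ± 2.44 (SE) above cytoplasm on the log2(RPM + 1) scale (adjusted p = 0.0158). That call did not hold scaled to snoRNA reads, where the difference was -0.75 (adjusted p = 1). In mNPC chromatin and nucleoplasm were higher than cytoplasm (adjusted p = 0.000607 and 0.0331). The call for nucleoplasm was lost without replicate 1, 2 or 3 of mNPC nucleoplasm (0.0699, 0.0818 and 0.0798) and without replicate 2 or 3 of mNPC cytoplasm (0.129 and 0.114), with the raised floor (0.0774) and scaled to snoRNA reads (0.0574). In mESC no fraction pair passed, and without replicate 2 of mESC chromatin, the library at 0, chromatin passed over cytoplasm (0.000158). Nucleoplasm exceeded cytoplasm by 3.57 in mCtx, and chromatin exceeded nucleoplasm by 3.85 in mNPC and 3.99 in mCtx, with no overlap and without passing in the fit of all groups (SE 2.44, adjusted p = 0.354, 0.324 and 0.274). All 3 passed with only the compared groups in the fit (0.000139, 0.000566 and 4.43e-05).

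Gm25855, from the first intron, was listed in the cytoplasm and nowhere else. It had 99.2, 84.9 and 127.5 RPM in mESC cytoplasm, 137, 120.0 and 87.3 in mNPC cytoplasm and 99.7, 61.5 and 58.8 in mCtx cytoplasm. All 18 libraries of chromatin and nucleoplasm were at 0. Cytoplasm was higher than chromatin (adjusted p = 2.35e-15, 2.23e-15 and 1.01e-14 in mESC, mNPC and mCtx) and than nucleoplasm (5.07e-15, 1.49e-14 and 6.07e-14). With only the compared groups in the fit the values were 3.23e-06, 1.23e-05 and 1.10e-05 for chromatin and 0.000854, 1.67e-05 and 8.28e-05 for nucleoplasm. Both fits take part of their spread from groups at 0 in all libraries, so these p-values say little about the spread of replicates. The cytoplasmic levels are low for the comparison: the lowest value above 0 was 45.2 to 54.8 RPM in mESC chromatin libraries, 32.5 to 59.1 in mNPC and 19.4 to 25.1 in mCtx. Where values under 59.1 RPM were raised to it in every library, both calls of mCtx were lost (adjusted p = 0.267 and 0.418). The cytoplasm of mCtx was lower than that of mNPC, at -0.66 ± 0.25 (SE) on the log2(RPM + 1) scale (adjusted p = 0.0494). The libraries of those groups overlapped, and the call was lost without replicate 1 or 2 of mNPC cytoplasm (0.189 and 0.136) or replicate 2 or 3 of mCtx cytoplasm (0.166 and 0.1997). It was kept in only 4 of 10 other settings. The call was lost with a pseudocount of 0.1 (0.0873), no filter (0.0781) and the stricter filter (0.0507). The same held scaled to snoRNA reads (0.0815), with only the compared groups in the fit (0.136) and with the replicate block (0.0572). Without replicate 1 of mCtx cytoplasm, mCtx was also lower than mESC (-0.76, 0.00957).

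Counted over the 8 entries, the fractions differed as follows, and each count stands beside the share of all 851 tested entries called in that direction. For chromatin over cytoplasm, mESC had 4 entries higher (24.9% of all) and 2 lower (29.5%). The same pair gave 5 higher (19.3%) and 1 lower (19.5%) for mNPC, and 3 higher (20.2%) and 1 lower (23.9%) for mCtx. Gm25855 was the lower one each time, joined in mESC by Gm22680. For nucleoplasm over cytoplasm, mESC had 1 higher (14%) and 1 lower (5.17%), mNPC had 4 higher (9.4%) and 1 lower (6.11%), and mCtx had 1 higher (13.5%) and 1 lower (11.8%), the lower one again being Gm25855. For chromatin over nucleoplasm, mESC had 4 higher (19.9%) and 1 lower (30.9%), mNPC had 2 higher (16.9%) and 1 lower (10.9%), and mCtx had 1 higher (14.9%) and 2 lower (17.2%). The lower ones there were Gm22680 in mESC and mCtx and Gm24452 in mNPC and mCtx. In all, 36 of 72 tests of an entry between fractions passed, 25 higher and 11 lower in the fraction nearer to chromatin. With the libraries scaled to snoRNA reads, 28 passed, 15 higher and 13 lower. In 24 of the 36 calls 1 of the groups was at 0 in all its libraries, so their fold changes have no measured size. In 9 tests of the 8 entries both groups were above 0 throughout, and in 9 of 9 the fraction nearer to chromatin had the higher values without overlap. The same held for 167 of 172 such tests of the other snoRNA entries (97.1%) and for 19% of the 2378 such tests of all entries.

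Most of the other tested snoRNA entries were also higher in chromatin than in cytoplasm. Of the 188 others tested, 146 (mESC), 123 (mNPC) and 114 (mCtx) were higher in chromatin than in cytoplasm, and 0 were lower. Their median difference was 7.86, 7.10 and 6.40 on the log2(RPM + 1) scale, beside 6.52, 9.91 and 2.76 for the 8 entries and 0 in all 3 kinds of cells for all 851 entries. Of 73 tested entries named Snord, which are C/D box RNAs, 54, 50 and 51 were higher in chromatin than in cytoplasm and 0 were lower. The 9 snoRNA entries of Gas5 on chromosome 1, another host with a snoRNA in most introns, had 6, 5 and 4 higher and 0 lower in mESC, mNPC and mCtx. In chromatin against nucleoplasm 123, 107 and 93 of the 188 others were higher and 9, 4 and 8 lower, with medians of 4.39, 4.003 and 3.34, beside 2.67, 3.61 and -0.32 for the 8. The Gas5 entries had 4, 4 and 3 higher and 0, 1 and 2 lower. These lists were written with results of these data known, their medians hold groups listed at 0, and the differences between lists were not tested.

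Between cells within chromatin, 5 entries changed with the kind of cell. In mNPC against mESC chromatin Gm22744 and Gm22680 were higher (adjusted p = 0.000895 and 0.00109) and Gm24452 was lower (3.39e-06), that is 2 of 8 higher (15.9% of all tested entries) and 1 of 8 lower (29%). In mCtx against mESC chromatin Gm22744 was higher (adjusted p = 0.0130) and Gm25894, Gm24452 and Gm24453 were lower (1.74e-05, 3.26e-06 and 0.00311), 1 of 8 higher (22.8% of all) and 3 lower (29.3%). Gm24453 fell by 3.84 there on the log2(RPM + 1) scale, and scaled to snoRNA reads the difference was -2.75 without passing (adjusted p = 0.415). The call of Gm22744 was lost without replicate 2 or 3 of mCtx chromatin (adjusted p = 0.0842 and 0.0858). In mCtx against mNPC chromatin Gm25894 and Gm22680 were lower (adjusted p = 0.000293 and 0.00209), 2 of 8 (11.9% of all) with 0 higher (16%). With only the compared groups in the fit, both calls of Gm22680 and that of Gm22744 in mCtx missed the threshold (0.125, 0.150 and 0.107), and Gm24453 and Gm25894 passed as lower in mNPC than in mESC, by -2.29 and -1.95 on the log2 scale with no overlap (0.000261 and 0.0267). Scaled to snoRNA reads the call of Gm22744 in mCtx was also lost (0.0941), at a difference of 10.19 beside 8.53 in log2(RPM + 1). Gm23246 passed in none of these pairs, and without replicate 1 of mESC chromatin it was higher in mNPC than in mESC (0.0310).

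In nucleoplasm 2 entries and in cytoplasm 3 passed in some pair of cells. In mNPC against mESC nucleoplasm Gm24452 was higher and Gm24453 lower (adjusted p = 9.26e-05 and 1.48e-06), 1 of 8 higher (12.8% of all) and 1 lower (35.8%). In mCtx against mESC nucleoplasm Gm24452 was higher and Gm24453 lower again (0.00764 and 0.00402), 1 of 8 higher (20.9%) and 1 lower (31.3%). Gm24453 was the entry measured in all libraries of both, at -3.72 on the log2(RPM + 1) scale, a call that did not hold scaled to snoRNA reads (0.427). The call of Gm24452 was lost without replicate 1 or 2 of mCtx nucleoplasm (0.0580 and 0.0587) and with only the compared groups in the fit (0.111), and without either one it was lower in mCtx than in mNPC nucleoplasm (0.0395 and 0.0392). Without replicate 2 of mESC nucleoplasm, at 0, Gm25894 was higher there than in mESC cytoplasm (0.0380) and than in mNPC and mCtx nucleoplasm (0.0141 and 0.0231). The last difference also passed without replicate 1 of mCtx nucleoplasm (0.0434). In mCtx against mNPC nucleoplasm Gm24453 was higher (adjusted p = 0.00265), 1 of 8 (23.5% of all) with 0 lower (10.3%). It was a difference between levels of 13.9 to 19.4 RPM and libraries at 0, lost with the raised floor (adjusted p = 1). In cytoplasm Gm24453 and Gm22680 were lower in mNPC than in mESC (adjusted p = 0.00198 and 0.00692), 2 of 8 (27.5% of all) with 0 higher (14.1%). Gm24453 was also lower in mCtx than in mESC cytoplasm (0.00201), 1 of 8 (24.4%) with 0 higher (21%). All 3 calls were lost with the raised floor (adjusted p = 0.696, 0.393 and 0.725), and both of Gm24453 with only the compared groups in the fit (0.105 and 0.122). In mCtx against mNPC cytoplasm 1 of 8, Gm25855, was lower (10.8% of all) and 0 were higher (21.5%). That call was kept in 4 of 10 other settings. With only the compared groups in the fit, further differences without overlap passed. These were Gm22680 in mNPC and mCtx against mESC nucleoplasm (-1.12 and -1.54, adjusted p = 0.0435 and 0.0208), Gm23246 in mCtx against mESC and mNPC nucleoplasm (-2.17 and -1.24, 0.00333 and 0.0112) and Gm22680 in mCtx against mESC and mNPC cytoplasm (-2.72 and 5.02, 0.000232 and 6.41e-05). Counted by entry, 4 then passed in nucleoplasm and 4 in chromatin; whether the fractions differ in this was not tested. In all, 18 of 72 tests between cells passed, 6 higher and 12 lower in the first-named cells (mNPC over mESC, mCtx over either), and scaled to snoRNA reads 18 passed, 9 higher and 9 lower.

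The 8 entries were also added together in each library, since reads moved between neighbours cancel in the sum. The mESC libraries summed to 42142, 28166 and 28405 RPM for chromatin, 7552, 4707 and 3649 for nucleoplasm and 895, 292.9 and 496 for cytoplasm. Those of mNPC summed to 13843, 29859 and 67052 RPM for chromatin, 2720, 3666 and 3236 for nucleoplasm and 162, 120.0 and 87.3 for cytoplasm. Those of mCtx summed to 5944, 13245 and 13679 RPM for chromatin, 2232, 2901 and 1479 for nucleoplasm and 149, 164 and 169 for cytoplasm. Chromatin, nucleoplasm and cytoplasm did not overlap in any of the 3 kinds of cells. On the log2(RPM + 1) scale chromatin exceeded cytoplasm by 5.99 (mESC), 7.97 (mNPC) and 5.99 (mCtx) (SE 0.48, limma adjusted p = 1.61e-09, 1.66e-11 and 1.77e-09). Nucleoplasm exceeded cytoplasm by 3.32, 4.73 and 3.72 (adjusted p = 1.88e-05, 1.81e-07 and 4.48e-06), and chromatin exceeded nucleoplasm by 2.67, 3.25 and 2.27 (8.77e-05, 1.84e-05 and 0.000955). The 9 differences passed with each library left out in turn.

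As a share of all snoRNA reads the group means of the sum stood in the opposite order, though not every pair of fractions passed. In mESC the shares of the listed snoRNA RPM were 8.45% ± 1.45 (SD, n = 3) for chromatin, 15.4% ± 1.78 for nucleoplasm and 16.2% ± 3.05 for cytoplasm. In mNPC the shares were 12.3% ± 6.24, 17.6% ± 2.82 and 26.2% ± 6.28, and in mCtx 6.07% ± 2.51, 16.7% ± 2.65 and 29.5% ± 4.31. The cytoplasmic shares rest on low totals. All snoRNA entries together held 610, 607 and 270 RPM in mNPC cytoplasm and 606, 525 and 516 in mCtx cytoplasm. The lowest values above 0 in these libraries were 22.5, 28.2 and 40.6 RPM and 18.6, 9.31 and 8.40 RPM. Scaled to snoRNA reads, the sum was lower in chromatin than in cytoplasm, with differences of -0.93 (mESC), -1.19 (mNPC) and -2.38 (mCtx) on the log2 scale (adjusted p = 0.0198, 0.00458 and 2.64e-06). Chromatin was lower than nucleoplasm in mESC and mCtx (0.0354 and 0.000606), and nucleoplasm lower than cytoplasm in mCtx (0.0486). In mNPC chromatin against nucleoplasm (-0.63, adjusted p = 0.179) and nucleoplasm against cytoplasm (-0.56, 0.246) did not pass. Nucleoplasm against cytoplasm in mESC (-0.055) did not pass either. Gm25855 made up much of the cytoplasmic sum, at 93.3% in mNPC and 45.7% in mCtx. Without it, a comparison added after the values were seen, the difference of chromatin from cytoplasm on this scale was -0.62 for mESC and -1.62 for mCtx and did not pass (adjusted p = 1 and 0.668), and in mNPC it turned to 11.56, higher in chromatin (0.000352). In 2 of the 3 mNPC cytoplasm libraries no other entry was above 0, so that size is not a measured fold. In RPM without it, 8 of the 9 differences between fractions passed, all but chromatin over nucleoplasm in mCtx (0.0553). That last difference was 2.27 with and without Gm25855, and only the spread of the fit had changed.

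**Figure D3:**
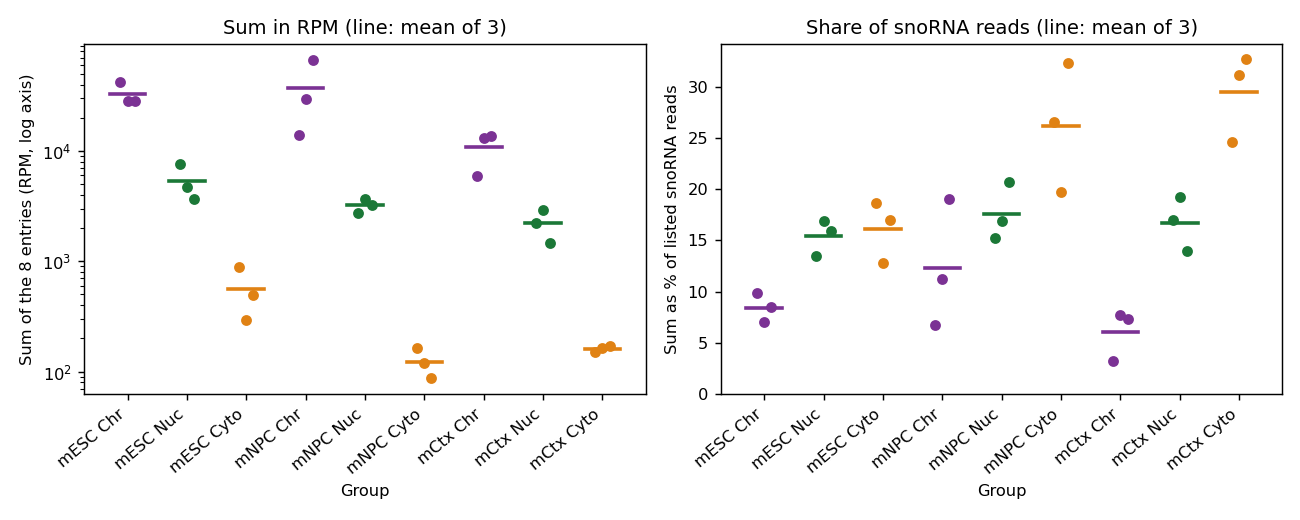
The sum of the 8 entries in each library, in RPM on a log axis (left) and as a percentage of the listed snoRNA reads (right), with a line at the mean of the 3 libraries of each group and colours for the fractions. In RPM chromatin is highest in each kind of cell, up to 67052, while the mean share of snoRNA reads is highest in cytoplasm, at 29.5% in mCtx.

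Between cells the sum changed less. In chromatin mCtx was lower than mESC (-1.66 on the log2(RPM + 1) scale) and than mNPC (-1.56) (adjusted p = 0.00614 and 0.0176), the first of which was -0.57 and did not pass scaled to snoRNA reads (0.209) and -0.92 with the libraries centred on the entries they share (0.154), while mNPC and mESC differed by -0.09 (adjusted p = 1). The difference of mCtx from mNPC was lost without replicate 3 of mNPC chromatin (0.137) or replicate 1 of mCtx chromatin (0.107), and with only the compared groups in the fit (0.150). In nucleoplasm mCtx was lower than mESC, at -1.25 (adjusted p = 0.0336), lost without replicate 1 or 2 of mESC nucleoplasm (0.140 and 0.0576) and without replicate 1 or 3 of mCtx nucleoplasm (0.0611 and 0.142). That difference scaled to snoRNA reads was 0.11 (0.898), and centred it was 0.019. In cytoplasm mNPC and mCtx were lower than mESC, at -2.08 and -1.65 (adjusted p = 0.00116 and 0.00726), the first -1.18 and lost with centring (0.0737) and the second lost without replicate 1 of mESC cytoplasm (0.0568). Both, scaled to snoRNA reads, turned to higher values, 0.69 and 0.88 (0.105 and 0.0371). The remaining pairs, mNPC against mESC nucleoplasm and mCtx against mNPC nucleoplasm and cytoplasm, did not pass (adjusted p = 0.283, 0.469 and 0.719). Without Gm25855 the sum in cytoplasm was higher in mCtx than in mNPC (4.82 in place of 0.42, adjusted p = 0.000164) and its difference of mNPC from mESC was -7.06, while mCtx no longer passed against mESC or mNPC chromatin (0.128 and 0.232) or mESC nucleoplasm (0.245). Those chromatin and nucleoplasm differences stayed at -1.66, -1.56 and -1.25, since Gm25855 was at 0 in all libraries of these fractions. Only the spread, which the fit takes from all 27 libraries, had changed. The difference of chromatin from cytoplasm was larger in mNPC than in mESC by 1.98 and smaller in mCtx than in mNPC, at -1.99 (adjusted p = 0.0309 and 0.0495), and these passed in 5 and 3 of 12 fits with a library left out, with adjusted p up to 0.0957 and 0.138. Both were also lost with centring (0.0678 and 0.274) and with only the compared groups in the fit (0.0991 and 0.125).

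The make-up of the sum changed with the fraction and the kind of cell. In mESC chromatin Gm24453, Gm23246, Gm24452 and Gm25894 gave 29.3%, 21.9%, 21.1% and 13.9% of the reads of the sum. In the 3 nucleoplasm groups Gm22680 gave the largest part, 52.1% in mESC, 37.9% in mNPC and 42.2% in mCtx. In mNPC chromatin Gm22680 and Gm23246 gave 47.4% and 27.7%, and in mCtx chromatin Gm22744 and Gm23246 gave 43.4% and 41.9%. In RPM per base of entry length, the entry with the highest level was Gm22680 in 13 libraries, Gm25855 in 6, Gm23246 in 4, and Gm24453 and Gm22744 in 2 each, and it was the same entry as in RPM in all 27. All 9 nucleoplasm libraries were led by Gm22680. From 1 to 7 of the 8 entries were above 0 in a library.

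**Figure D4:**
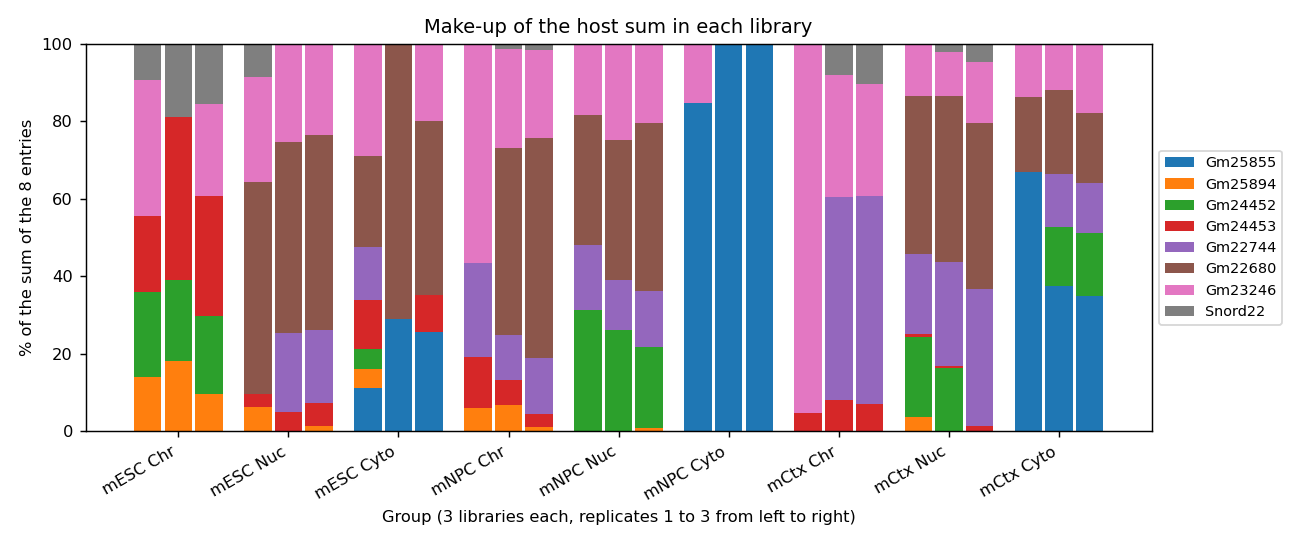
The percentage of the RPM sum that each of the 8 entries gave in each library (bars, replicates 1 to 3 of each group). Gm22680 leads the 9 nucleoplasm libraries, and Gm25855 gives 84.7% to 100% of the mNPC cytoplasm libraries.

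Gm22680 and Gm24452 lay in introns 6 and 3 of the same transcript and were compared within each library, where the scaling of the library cancels if both are above 0. The difference of Gm22680 minus Gm24452 in log2(RPM + 1) was larger in nucleoplasm than in cytoplasm by 2.69 over the 3 kinds of cells, with the same sign in all 3. It was smaller in chromatin than in nucleoplasm, at -6.28, and in chromatin than in cytoplasm, at -3.59, with that sign in 2 of 3 kinds of cells. Between cells it moved by 1.91 (mNPC over mESC), 0.41 (mCtx over mESC) and -1.50 (mCtx over mNPC). By an exact permutation test within strata (8000 assignments, two-sided) none of the 6 passed after adjustment over the 6, the lowest being nucleoplasm against cytoplasm (p = 0.032, adjusted p = 0.192), the only 1 with an unadjusted p under 0.05. That comparison passed with a pseudocount of 10 or the raised floor (adjusted p = 0.0315 and 0.0015). Both entries were above 0 in 8 of the 27 libraries, Gm22680 alone in 9, Gm24452 alone in 3 and neither in 7.

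Replicates of a single group often split between 0 and a high value. Of the 72 combinations of an entry and a group, 27 were above 0 in all 3 libraries, 20 in some and 25 in none. The split combinations were 27.8% here, 16.5% among the other 231 snoRNA entries and 17.3% among the Gas5 entries. In 7 of the 20 the highest library was at least 10 times the highest of all floors. They involved 4 of the 8 entries, or 50%, against 41 of the 231 others (17.7%) and 4 of the 9 of Gas5 (44.4%). The largest such gap was that of Gm22680 in mNPC chromatin (0, 14399 and 38151 RPM), followed by Gm23246 in mESC chromatin (14831, 0 and 6775) and Gm22744 in mCtx chromatin (0, 6942 and 7334). The library at 0 was replicate 1 for Gm22680 in mNPC chromatin and for Gm22744 in mCtx chromatin. For Gm23246 in mESC chromatin it was replicate 2. Snord22 was at 0 in the same replicate 1 libraries of mNPC and mCtx chromatin. Of the 8 entries, these libraries listed 4 and 2 above 0, against 6 and 4 in replicates 2 and 3 of mNPC and mCtx chromatin. How reads were assigned to entries is not given in the sources used here, and its part in these gaps was not tested.

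The entries of the host followed different courses over the libraries. Over the 27 libraries the Spearman correlation of log2(RPM + 1) ran from -0.70 (Gm25855 with Gm23246) to 0.75 (Gm24453 with Snord22) across the 28 pairs, with a median of 0.072. Among 113 snoRNA entries above 0 in at least 9 libraries, Gm24453 was most like Snord82, Snord96a and Gm26457, at 0.97, 0.95 and 0.94. Snord22 was most like Snord1b, Snord14d and Gm26247, at 0.88, 0.84 and 0.84. Gm25894 was most like Mir5117 of the Gas5 region, at 0.84, and Gm23246 like Gm25632 and Gm24920, at 0.83 each. The others had looser likenesses, at 0.76 for Gm22680 with Snord95, 0.66 for Gm22744 with Rnu3a, 0.47 for Gm24452 with Gm23969 and 0.38 for Gm25855 with Snord2. These points share their libraries, their scaling, the large steps between fractions and many zeros, so the values are descriptions.

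The difference between fractions itself changed with the kind of cell for 5 of the 8 entries. For chromatin against nucleoplasm 3 of 8 differed between mNPC and mESC (Gm24452, Gm24453 and Gm22680) where 29.4% of all entries did, 2 of 8 between mCtx and mESC (Gm25894 and Gm24452, 33%) and 2 of 8 between mCtx and mNPC (Gm25894 and Gm24453, 13.6%). For chromatin against cytoplasm 3 of 8 differed between mNPC and mESC (Gm24452, Gm22744 and Gm22680, 30.8% of all), 2 of 8 between mCtx and mESC (Gm25894 and Gm24452, 42.4%) and 2 of 8 between mCtx and mNPC (Gm25894 and Gm22680, 17.3%). In all 14 of 48 such tests passed, 4 with a higher and 10 with a lower difference in the first-named cells. Snord22, Gm23246 and Gm25855 passed in none. Of the 14, 8 were lost under another setting. Scaled to snoRNA reads, all 4 of Gm25894 missed the threshold (adjusted p = 0.119 to 0.215), as did Gm24452 for chromatin against cytoplasm between mNPC and mESC (0.187). The differences of Gm25894 were -12.59 to -9.07 on that scale, beside -10.6 to -9.36 in the main fit. That of Gm24452 was -9.68, beside -10.87. With only the compared groups in the fit, Gm22680 lost chromatin against nucleoplasm between mNPC and mESC (0.128) and chromatin against cytoplasm between mCtx and mNPC (0.0566), and both its differences between mCtx and mESC passed (0.0346 and 8.44e-06). With the raised floor, Gm24453 between mNPC and mESC turned to -0.32 (0.812).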

How the data were processed

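Small RNA was measured in 27 libraries of 3 kinds of cells and 3 fractions. The deposited table gives each small RNA in RPM, reads that the authors scaled to library size; for the aligner, the build used in mapping and the assignment of reads, nothing is given in the sources used here. Values that are no whole multiple of 1 read were common, so counts could not be recovered and no count test was run. Per the labels' protocols, libraries of 120 to 160 bp were read as single reads of 100 bp. Insert lengths were not analysed here, so reads from whole snoRNAs and reads from pieces of them cannot be told apart. The listed RPM summed to 73.9% to 97.4% of the nominal total of each library.

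Every column was mapped to a sample by its name, and 0 columns stayed unmapped. Starts in the table were counted from 0 and are printed from 1. A minimum of 1 RPM in no fewer than 3 libraries left 851 of the 1013 entries, which were tested in R 4.3.3 with limma 3.58.1 (trend and robust) on log2(RPM + 1), with 9 group means, 18 residual degrees of freedom and Benjamini-Hochberg adjustment over all tested entries within each of 24 contrasts; all 8 entries passed the minimum. The sum of the 8 was tested in the same fit in their place, over 844 entries. The fit was tested on simulated data. Gm22680 minus Gm24452 was compared by exact permutation. An exact test of 3 libraries against 3 cannot go below p = 0.1, so none is given for single groups. Named were every entry found by the rule and the 3 most alike snoRNA entries of each; lists were counted only. The members and lists were chosen with earlier results of these data known. Sequences came from GENCODE vM21. Microglia and blood markers (miR-142a, miR-223 and miR-451a, 2 entries) summed to 0 in mNPC, 0 to 44.5 RPM in mCtx and 126 to 1774 in mESC, endothelium and mesenchyme markers to 949 to 7524 in mESC and 112 to 345 in mNPC, and miR-9 to 34835 to 110311 RPM in mNPC, 45438 to 139595 in mCtx and 0 to 752 in mESC. Alternatives were pseudocounts of 10 and 0.1, no filter, at least 1 RPM in 9 libraries, a common floor of 59.1 RPM, scaling to snoRNA reads, centring on 106 entries above 0 in all libraries, limma with no trend or robust step, only the compared groups in the fit, the replicate number as a block, and each library left out in turn.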

Additional observations from a re-analysis of the deposited data

Results flagged for a closer look

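The difference between fractions differed between kinds of cells, by an interaction term in the limma fit, for 5 entries and for the sum of the 8. Such calls were common among all 851 entries. For chromatin against nucleoplasm 29.4% (mNPC and mESC), 33% (mCtx and mESC) and 13.6% (mCtx and mNPC) of all entries passed. For chromatin against cytoplasm 30.8%, 42.4% and 17.3% did. For chromatin against nucleoplasm the adjusted p was 4.39e-07 for Gm24452, 0.00527 for Gm24453 and 0.0128 for Gm22680 between mNPC and mESC, 0.0109 for Gm25894 and 6.12e-06 for Gm24452 between mCtx and mESC, and 0.0116 for Gm25894 and 0.0103 for Gm24453 between mCtx and mNPC. For chromatin against cytoplasm it was 0.00196 for Gm24452, 0.00704 for Gm22744 and 0.000214 for Gm22680 between mNPC and mESC, 0.00491 for Gm25894 and 0.000149 for Gm24452 between mCtx and mESC, and 0.0123 for Gm25894 and 0.00229 for Gm22680 between mCtx and mNPC. For the sum of the 8 entries, chromatin against cytoplasm gave 0.0309 for mNPC over mESC and 0.0495 for mCtx over mNPC. For each of the 14 entry results at least 1 of the 4 groups was listed at 0 in all its libraries, so the size of the difference was not measured. Under another setting 8 of the 14 were lost: Gm24453 between mNPC and mESC with the common floor (-0.32, adjusted p = 0.812), Gm22680 between mNPC and mESC (0.128, chromatin against nucleoplasm) and between mCtx and mNPC (0.0566, chromatin against cytoplasm) with only the compared groups in the fit, and, scaled to snoRNA reads, Gm24452 between mNPC and mESC for chromatin against cytoplasm (0.187) and Gm25894 in its 4 (0.211, 0.134, 0.215 and 0.119 in the order above). On the snoRNA scale the differences of Gm25894 were -12.59 to -9.07, beside -10.6 to -9.36 in the main fit. Both results of the sum were lost with centring (0.0678 and 0.274).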

How the results depend on the processing

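The number of entry tests that passed stayed within 1.5 times of the main value under every setting: 28 to 40 of 72 between fractions (main 36; 34 to 39 with a library left out), 17 to 22 between cells (main 18; 17 to 20) and 12 to 21 of 48 for the interactions (main 14; 14 to 17). The calls behind these numbers were not always the same. Of 192 entry tests, 10 calls were lost and 18 gained with the common floor, and 3 results changed sign. Scaled to snoRNA reads 18 were lost, 7 gained and 3 changed sign. With only the compared groups in the fit 169 tests could be made, and 15 calls were lost and 19 gained. The sum passed in 14 of 18 tests (13 to 14 with a library left out), in 11 with centring, in 11 without Gm25855, in 8 scaled to snoRNA reads (1 higher and 7 lower) and in 4 without Gm25855 on that scale. Centring moved the differences of the sum by -0.84 to 1.60 on the log2 scale. Gm22680 minus Gm24452 passed in 0 of 6 tests and in 0 with any library left out, and in 1 each with a pseudocount of 10 and the common floor.

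Scaled to snoRNA reads the sum changed sign in mESC (chromatin over cytoplasm -0.93, nucleoplasm over cytoplasm -0.055, chromatin over nucleoplasm -0.88), in mNPC (-1.19, -0.56 and -0.63) and in mCtx (-2.38, -0.82 and -1.56), and for mCtx over mESC nucleoplasm (0.11), mNPC and mCtx over mESC cytoplasm (0.69 and 0.88) and the chromatin to cytoplasm difference of mNPC over mESC (-0.25). So did Gm23246 in mCtx chromatin over cytoplasm (-0.75) and Gm25855 for mCtx over mESC cytoplasm (2.01) and its chromatin to cytoplasm interaction (-2.01). The sum without Gm25855 on that scale, an alternative chosen after seeing the data, gave -0.62 and -0.88 in mESC (chromatin over cytoplasm and over nucleoplasm), -0.63 in mNPC (over nucleoplasm), -1.62, -0.060 and -1.56 in mCtx, 0.11 for mCtx over mESC nucleoplasm and 0.43 for cytoplasm. With the common floor the interactions of Gm24453 changed sign, to -0.32 (chromatin over nucleoplasm, mNPC over mESC), -1.98 and -3.53 (chromatin over cytoplasm, mNPC and mCtx over mESC). Centring turned the sum of mCtx over mESC nucleoplasm to 0.019, and Gm22680 in mNPC chromatin over nucleoplasm ranged from -3.32 to 4.29 with a library left out, the extremes without replicates 3 and 1 of mNPC chromatin. The cause was not tested.

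Same-numbered libraries had correlations of their deviations from the group means of -0.12 to 0.19 between fractions and -0.076 to 0.096 between cells. The own number gave the best correlation in 16 of 27 comparisons between fractions and in 12 of 27 between cells. Those between fractions were mostly in mESC and mNPC. Whether these counts exceed chance was not tested, and the main fit did not pair libraries by number. With the replicate block 36, 17 and 15 entry tests and 14 of the sum passed, and 0 for Gm22680 minus Gm24452. The depth of the libraries is unknown, so a value listed at 0 has no stated upper limit.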
